A study of Mus musculus with 2 samples.

Results

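The 39 protein-coding Hox genes of the mouse, which lie in 4 clusters on different chromosomes, were examined for binding of EP300. They were taken by symbol, as every protein-coding gene named Hoxa, Hoxb, Hoxc or Hoxd plus a number in the GENCODE annotation of the mm10 assembly, and make up 39 of the 21853 protein-coding genes with an annotated transcription start site (TSS). Peaks of the optimal list belonged to them when the summit lay inside a cluster or when the nearest protein-coding TSS within 100 kb was that of a Hox gene. By this rule 1 optimal peak, of 17339 on the main chromosomes, belonged to the Hox genes, and none lay inside a cluster.

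EP300, or p300, is a histone acetyltransferase and transcriptional coactivator found at active enhancers and promoters. Chromatin immunoprecipitation with an EP300 antibody was followed by sequencing in heart tissue of newborn (postnatal day 0) B6NCrl mice, in 2 libraries that form a single group. The labels give both libraries 1 biosample and 1 donor identifier, so how far they match may describe technical repeats and not separate animals. There was nothing to compare them with, neither a different tissue or age nor a different genotype, and no p-values are given.

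Hox genes encode homeodomain transcription factors that specify position along the body axis, and their order within a cluster follows the order of their expression from head to tail. Low-numbered (anterior) genes act in the hindbrain, pharyngeal arches and the progenitors that build the outflow tract of the heart, where retinoic acid induces them, whereas high-numbered (posterior) genes pattern the lumbar and tail regions, limbs and urogenital tract. Where they are silent, the clusters are covered by Polycomb repressive complexes, which trithorax complexes oppose. In bulk tissue, binding in a few cells cannot be told apart from weak binding in many.

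Each of the 5 deposited lists gives a signal value per call, the peak caller's measure of height above the control. It was used to rank calls within a list, and values of the replicate lists are not comparable with those of the other lists. All 17339 optimal intervals on the main chromosomes were also pooled calls. The optimal peaks beside Hoxb had the same signal in both lists. The pooled list and both replicate lists each hold 300000 calls, a set far larger than the 17372 peaks that the authors kept as optimal by the irreproducible discovery rate (IDR), and they give the weaker calls described here. Read depth is unknown. The heart label was checked against markers: 7 of 8 heart muscle genes had an assigned optimal peak, led by Myh6 with 27 peaks and Tnnt2 with 21, as did 4 of 4 endothelial and 3 of 5 fibroblast genes. Liver had 1 of 4 (Ttr), neural cells 1 of 5 (Sox10) and blood 0 of 4. Over all protein-coding genes the share with an assigned peak was 31.9%.

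The sequence below is the 200 bp around the summit of the stronger of the optimal peaks on the Hoxb1 side of the Hoxb cluster (chr11:96426841-96427040, plus strand of mm10, intergenic), the optimal signal nearest to a cluster described here. Its nearest protein-coding TSS was that of the gene Skap1, at 37652 bp. It is therefore not the peak counted above for the Hox genes. Capitals mark matches to the ETS motif on either strand.
Hoxb1-side optimal peak: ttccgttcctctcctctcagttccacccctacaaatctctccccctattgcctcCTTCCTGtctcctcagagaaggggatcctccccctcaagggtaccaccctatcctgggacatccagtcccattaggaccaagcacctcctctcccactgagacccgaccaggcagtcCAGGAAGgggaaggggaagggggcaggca

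Of the 39 Hox genes, 1 (2.56%) had an assigned optimal peak, by distance and not by a measured contact, against a background of 31.9% of all 21853 protein-coding genes and 48.3% of the 8370 genes with a CpG-rich start, defined as at least 55% GC and an observed to expected CpG ratio of at least 0.6 in the 500 bp on each side. Each peak went to its nearest TSS only, so genes packed closely in a cluster had less room to take peaks than isolated genes. Neighbours in a cluster are also not independent of each other. How far this lowered the share was not tested. An optimal peak within 1 kb of a TSS, counted for each gene by itself, was found at 0 of 39 Hox genes. The shares were 21.3% of all protein-coding genes and 36.3% of CpG-rich ones. The Hox starts had a median GC of 57.4% (range 44.0 to 73.8%) and a median CpG ratio of 0.678, and 20 of 39 met the CpG-rich definition. Thus the CpG-rich members lacked optimal promoter peaks as well.

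**Figure D1:**
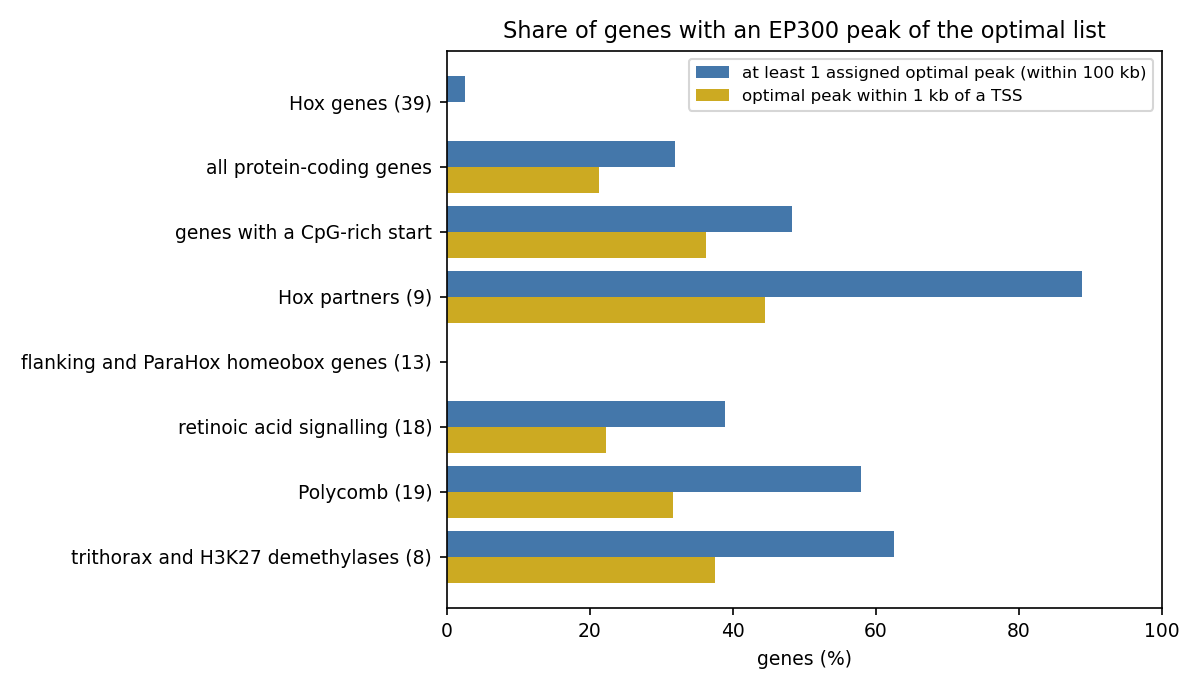
Share of genes (%) with at least 1 assigned optimal EP300 peak (blue) and with an optimal peak within 1 kb of a TSS (yellow) for the Hox genes, background sets and regulator lists, with the number of genes in parentheses. The Hox genes have 2.56% and 0%, beside 31.9% and 21.3% of all protein-coding genes, and the flanking and ParaHox homeobox genes have 0% in both.

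The Hoxa cluster (chromosome 6, 105.3 kb, 11 genes) held 7 pooled calls, and the Hoxb cluster (chr11:96194316-96368256, 174 kb, 10 genes) held 11. The Hoxc cluster (chr15:102921103-103036852, 116 kb, 9 genes) held 13 and the Hoxd cluster (chr2:74668310-74765142, 96.8 kb, 9 genes) held 5. None of these 36 calls was in the optimal or the conservative list. Per megabase, the clusters together had 73.2 pooled calls against 113 over the main chromosomes, with Hoxc at 112 and Hoxd at 51.6. The replicate 1 list had 47 calls in the clusters (95.6 per Mb) and the replicate 2 list 46 (93.5 per Mb), each against 113 per Mb genome-wide. Intervals of the pooled list covered 3.54% of the bases of the clusters and 5.30% of those of the main chromosomes. For optimal peaks the rate was 0 in 491.8 kb, beside 6.55 per Mb over the main chromosomes.

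All pooled calls within the clusters were weak beside the optimal peaks, whose median signal was 30.6, although the leading calls ranked well up in the longer lists. The best pooled signal was 11.2 in Hoxa, 11.7 in Hoxb, 10.8 in Hoxc and 9.57 in Hoxd, at ranks from 60109 to 112526 of the 300000, and the largest pooled −log10 q was 0.255. In replicate 1 the best signals were 11.1, 8.43, 7.70 and 6.70 in the same order of clusters, the first at rank 24546 with a −log10 q of 1.17. In replicate 2 they were 6.48, 6.24, 8.07 and 8.20, the last at rank 33540 with a −log10 q of 0.380. The order of the clusters differed between the libraries, with Hoxa highest in replicate 1 and Hoxd highest in replicate 2. Such signals were seldom kept by IDR anywhere: of the 239326 pooled calls with a signal between the lowest and the highest cluster call, 1259 (0.526%) were in the optimal list.

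**Figure D2:**
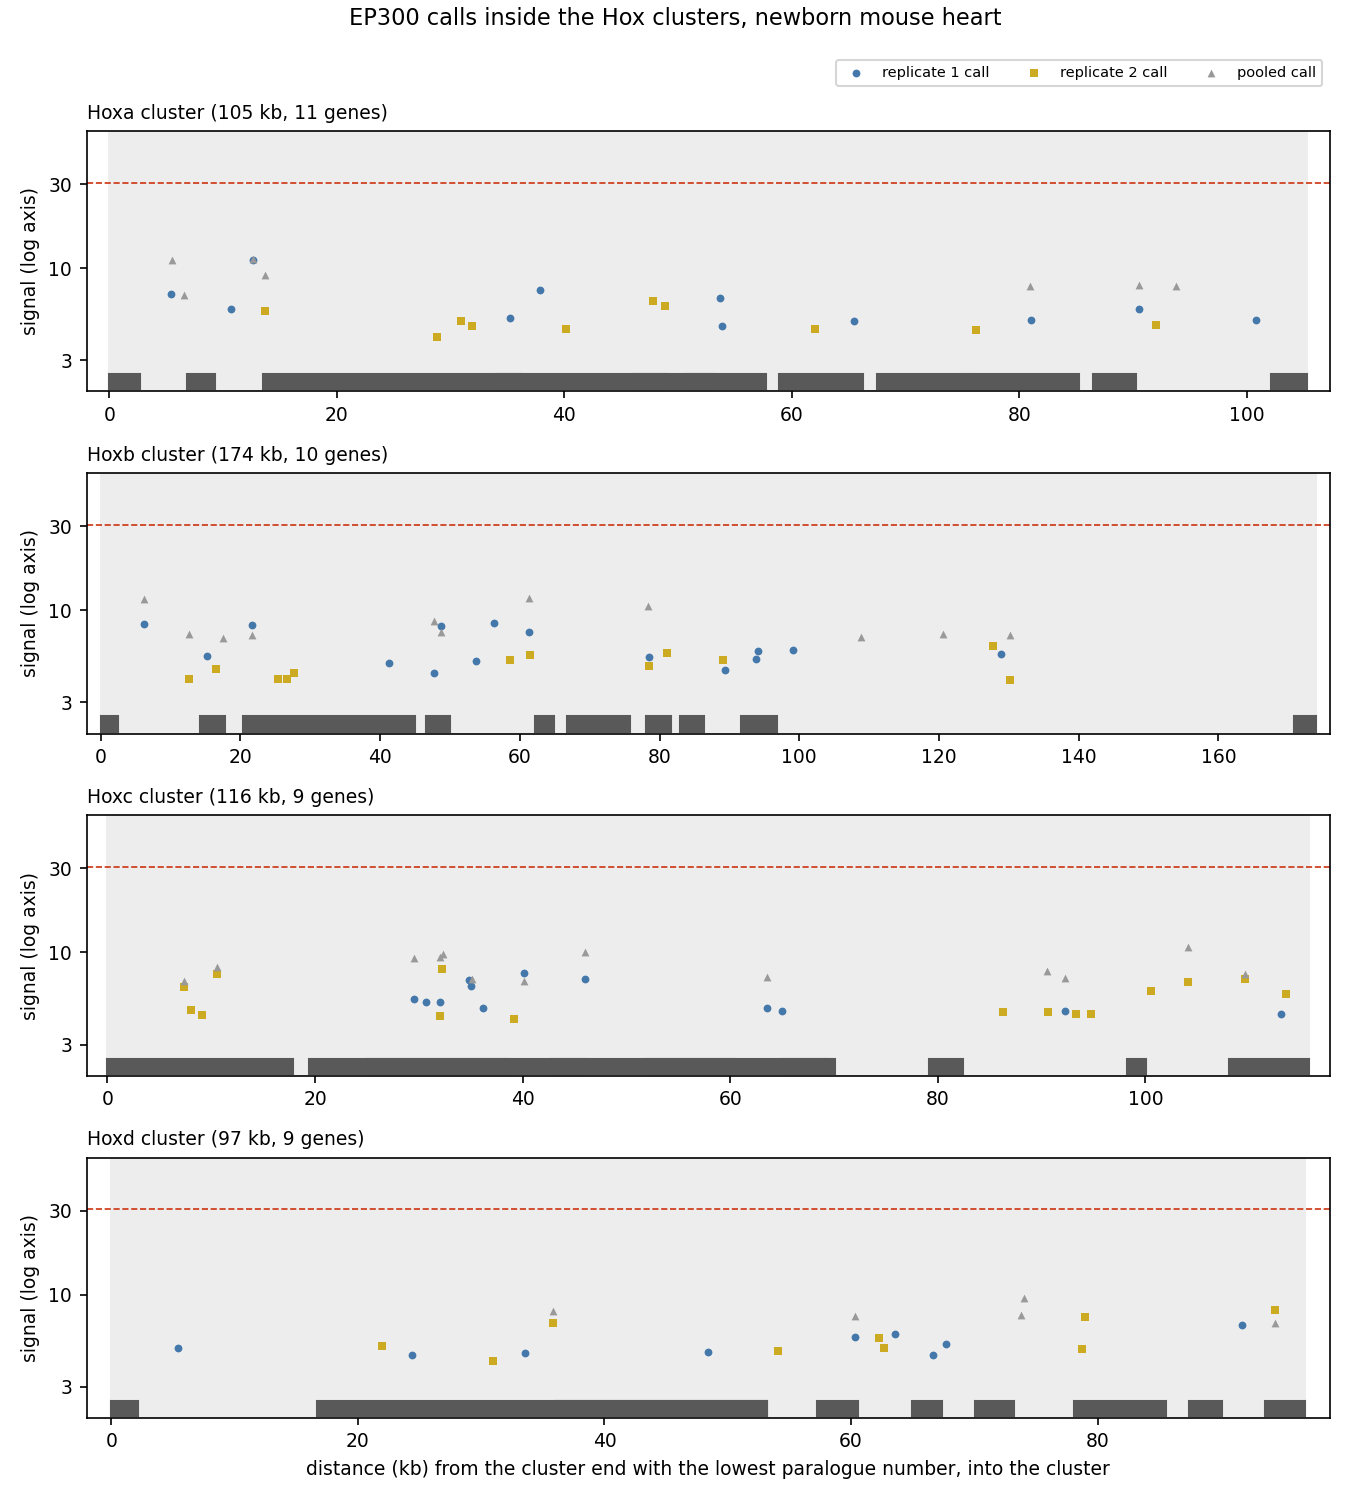
Signal (log axis) of the calls inside each Hox cluster against distance in kb from the cluster end with the lowest paralogue number. Dark bars are Hox genes. The dashed line is the median signal of the optimal list (30.6), which can be set beside the pooled calls only. In all 4 clusters the replicate and pooled calls lie at or under 11.7, and no optimal peak falls inside a cluster.

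Few of the calls were shared by the libraries, as was true of weak calls in general. Of the 47 replicate 1 calls inside the clusters, 2 (4.26%) had a replicate 2 summit within 100 bp, compared with 8.45% of replicate 1 calls genome-wide that ranked no higher than the leading cluster call. Of the 46 replicate 2 calls, 2 (4.35%) had a replicate 1 summit within 100 bp, against 7.98%. Of the 36 pooled calls, 15 had a replicate 1 summit alone, 11 a replicate 2 summit alone, 8 neither and 2 both (5.56%). Over the pooled calls genome-wide ranked at or beyond the leading cluster call, 36.1% had replicate 1 alone, 24.3% replicate 2 alone, 35.8% neither and 3.75% both. The pooled calls with a summit of both libraries within 100 bp stood near Hoxb5 and in Hoxc6. Near Hoxb5, a gene of cervical and shoulder-level identity, the signals were 11.7 pooled, 7.58 in replicate 1 and 5.60 in replicate 2. In Hoxc6, a gene of the forelimb and thoracic levels, they were 9.38, 5.25 and 4.38. The 2 replicate summits near Hoxb5 lay 136 bp apart, beyond the 100 bp used to match the replicates with each other.

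Among the anterior genes, the highest pooled call in the Hoxa cluster lay 3340 bp from the TSS of Hoxa2, which patterns the second pharyngeal arch. This call, inside the antisense transcript Hoxaas2, had a signal of 11.2 in the pooled list and 11.1 in replicate 1, and replicate 2 had no summit within 100 bp. A further call 4471 bp from Hoxa2, within Hoxa3, a gene required for thymus and parathyroid, had 9.12 in the pooled list and 5.72 in replicate 2, with no replicate 1 summit. The call 3769 bp from Hoxb1, which specifies a hindbrain segment and its facial motor neurons, had 11.6 and in replicate 1 8.38. The call 2222 bp from Hoxd4, a gene of the neck vertebrae, had 8.06 and in replicate 2 6.90. Each of these anterior calls had a summit within 100 bp in a single replicate list.

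Among middle and posterior genes, the call 2624 bp from Hoxb6, inside Hoxb7, had a pooled signal of 10.5 and a replicate 1 signal of 5.41. The call with the highest signal at any Hox promoter lay 235 bp from the TSS of Hoxc8, a gene of the lower brachial and thoracic levels. It had 10.01 in the pooled list and 7.07 in replicate 1, with none in replicate 2. A call 5003 bp from Hoxc6 had 9.86 and in replicate 2 8.07. The leading Hoxc call stood 3973 bp from Hoxc12, a posterior gene, with 10.8 and in replicate 2 6.80. A pair of overlapping calls before Hoxd10, which acts in lumbar motor neurons, had 9.57 and 7.65 at 853 and 608 bp from its TSS, and neither replicate had a summit within 100 bp of them.

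Within 1 kb of a TSS, the pooled list had a call at 5 of 39 Hox genes (12.8%), where the background was 55.4% of all protein-coding genes and 77.7% of CpG-rich ones. These genes were Hoxa11 (signal 8.02), which patterns the forearm and kidney, Hoxb2 (6.999), a hindbrain gene, Hoxc8 (10.01), Hoxd8 (7.58) and Hoxd10 (9.57). Among the 20 CpG-rich Hox genes the share was 4 of 20 (20%). Where such calls existed, their median signal at the Hox genes was 8.02 (range 6.999 to 10.01), beside a median of 22.3 at the other CpG-rich genes. No call in any list lay within 1 kb of a TSS for 23 of 39 Hox genes (59.0%), as for 13.1% of the other CpG-rich genes and 32.5% of the other protein-coding genes. Among the 20 CpG-rich Hox genes, 8 (40%) had no call in any list. Counted by window, the Hox promoters had 56.3 pooled calls per Mb and those of the other protein-coding genes 347. The promoters of the CpG-rich Hox genes had 91.6 per Mb and those of the other CpG-rich genes 502.

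The libraries named different Hox promoters. Replicate 1 had a call at 8 genes, namely Hoxa4 (5.23), Hoxa6 (6.80), Hoxa7 (5.03), Hoxa11 (5.88), Hoxa13 (4.48), Hoxc8 (7.07), Hoxd8 (5.72) and Hoxd9 (5.24). Replicate 2 also had a call at 8, namely Hoxa3 (4.09), Hoxa5 (6.11), Hoxa7 (4.52), Hoxb2 (4.65), Hoxb3 (4.09), Hoxb7 (5.74), Hoxc12 (6.02) and Hoxd3 (4.77). Hoxa7 alone, a gene of the thoracic region, was in both, which is 1 of 39 beside a background of 42.2% of all protein-coding genes and 63.8% of CpG-rich ones. Its calls had summits 3428 bp apart, near different TSSs of the gene, so no Hox promoter had a call at the same place in both libraries. The count moved with the definition: it was 6 at 2 kb, and 0 at 500 bp, with 1 TSS per gene or among the leading 100000 calls. The median signal was 5.48 at the Hox promoters and 14.3 at the other CpG-rich promoters in replicate 1, and 4.71 and 10.3 in replicate 2.

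**Figure D3:**
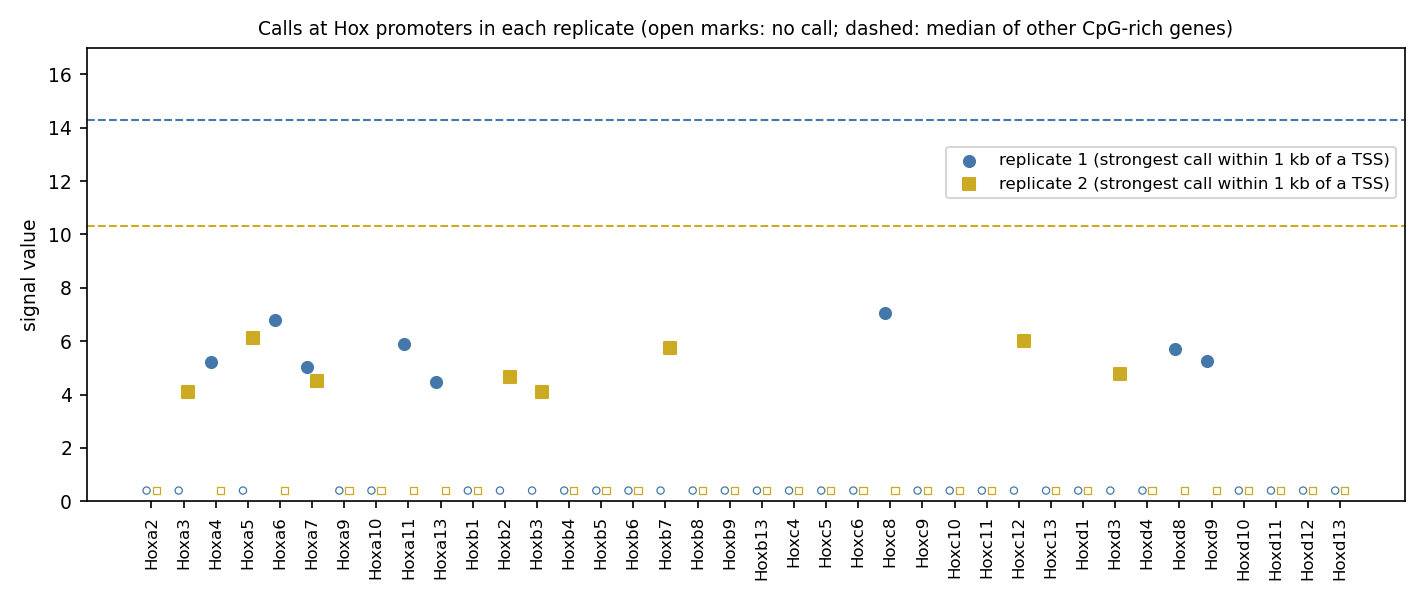
Signal value of the strongest call within 1 kb of a TSS of 38 Hox genes in replicate 1 (circles) and replicate 2 (squares), with open marks at the bottom where the list has no call, and dashed lines at the medians of the other CpG-rich genes (14.3 and 10.3). Every Hox call lies under the dashed line of its replicate, and Hoxa7 alone has a filled mark from both.

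The promoter calls were counted by position in the clusters. Of 12 anterior genes (paralogue groups 1 to 4), 1 had a pooled promoter call, 1 a replicate 1 call and 4 a replicate 2 call. Of 11 middle genes (groups 5 to 8) the counts were 2, 4 and 3, and of 16 posterior genes (groups 9 to 13) they were 2, 3 and 1. By cluster, replicate 1 placed 5 of its 8 in Hoxa and 0 in Hoxb, while replicate 2 placed 3 in each of these. Counts this small, from different genes in each library, give no order of the zones.

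Non-coding genes inside the clusters, many of them antisense to Hox genes, were counted in the same way. None of the 43 had an optimal peak within 1 kb of its TSS, beside 3.81% of all 33475 annotated non-coding genes. A pooled call stood at 14 of the 43, beside 22.3%, but several of these genes share a call, and the 14 rest on 10 calls. Of 18 long non-coding genes, 4 had a call in both replicate lists, beside 20.7% of 9793. These were Hoxaas2 (signal 11.1 in replicate 1 and 5.72 in replicate 2), Hoxa11os (5.88 and 4.76), Hoxb5os (7.58 and 5.60) and Hoxd3os1 (4.73 and 4.77). The summits of the replicates lay 136 bp apart at Hoxb5os and 1128, 1448 and 5674 bp apart at Hoxaas2, Hoxa11os and Hoxd3os1. No call in any list lay within 1 kb of the starts of Hotair, Hotairm1 or Haglr. Of the 7 miRNA genes, whose products include repressors of Hox messages, Mir196a-2 had a pooled call of 7.27 and a replicate 1 call of 4.87, and Gm44463 a replicate 1 call of 5.99. No list held a call at Mir10a, Mir10b, Mir196a-1, Mir196b or Mir615.

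Beyond the Hoxb cluster, 2 overlapping optimal peaks lay on its anterior side, 58685 bp outside the cluster and 61189 bp from the Hoxb1 TSS, with the summit of the stronger at chr11:96426941. No optimal peak lay within 100 kb of Hoxc or Hoxd. The stronger had a signal of 30.3 (rank 8876 of the optimal list, whose signals ran from 6.91 to 310.9 with a median of 30.6), with 21.4 in replicate 1 and 9.88 in replicate 2. The weaker had 14.4, with 11.7 in replicate 1 and no summit within 100 bp in replicate 2. Their nearest protein-coding TSS was that of Skap1, a T-cell adaptor gene, at 37652 bp, so they were not counted for Hoxb1. Of the 7 pooled calls between them and the cluster, the 3 highest, of 16.2, 15.02 and 13.8, stood 45360, 34373 and 38385 bp from the Hoxb1 TSS. The first had 4.48 in replicate 1 and 11.4 in replicate 2, the second 10.6 in replicate 2 alone and the third 7.73 in replicate 1 alone. None of the 3 was in the optimal list.

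The intervals without an optimal peak around Hoxb, Hoxc and Hoxd were long. The one holding Hoxd measured 1108 kb, from the promoter of Atp5g3, an ATP synthase subunit gene, to a peak 193868 bp from Mtx2, a mitochondrial import gene. Hoxc lay in 480 kb between Calcoco1 and Cbx5, and Hoxb in 351 kb between Atp5g1 and Skap1. Of the 17319 intervals between neighbouring optimal peaks, 2.64% were at least as long as that of Hoxd, 6.38% as that of Hoxc and 8.64% as that of Hoxb. Intervals of at least those lengths contained 44.3%, 62.6% and 68.9% of the bases, so gaps of these lengths hold much of the genome.

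The gene deserts beside Hoxd are known to hold its limb enhancers. In this interval the highest pooled call outside the cluster had a signal of 22.0 (rank 16718) and lay 168240 bp beyond Hoxd1, with 10.5 in replicate 1 and 8.50 in replicate 2. The next, of 20.3, lay 568774 bp from the Hoxd13 TSS, with 15.1 in replicate 1 and no summit within 100 bp in replicate 2. The nearest protein-coding TSS was that of Mtx2, at 107579 bp, for the 22.0 call and of Atp5g3, at 188210 bp, for the 20.3 call. Whether either call acts on Hoxd genes was not tested. At Hoxc the highest was 15.03, at 50522 bp beyond Hoxc4, with 10.1 in replicate 1 alone. These are the highest of 123 pooled calls outside Hoxd and 21 outside Hoxc in their intervals, while the clusters themselves held 5 and 13. The counts are over unequal lengths and are not rates. The whole intervals measured 1108 kb at Hoxd and 480 kb at Hoxc, and the clusters 96.8 and 116 kb. Inside the clusters the rates were 51.6 and 112 pooled calls per Mb, beside 113 over the main chromosomes. Among the nearest protein-coding genes outside the clusters, Skap2 had 1 assigned optimal peak and a pooled promoter call of 17.1, and Skap1 had no promoter call in any list. Evx1, Evx2 and Ttll6 had none in any list, Smug1 had a pooled call of 11.1 and Mtx2 one of 15.9, and Calcoco1 had an optimal promoter peak of 38.4, with 22.3 in replicate 1 and 18.9 in replicate 2.

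Gene-dense regions in general were set beside the clusters, in a comparison chosen after the data had been seen. The main chromosomes held 778 tiles of 100 kb with at least 5 protein-coding gene starts, of which 67.4% had an optimal peak. Of these tiles, 4 overlapped a Hox cluster, 1 per cluster, and none of the 4 had an optimal peak. The highest pooled signal per Hox tile ranged from 8.61 to 11.7, while the median over the 774 other tiles was 37.99. The tiles hold only part of each cluster and can reach past its end. The 8.61 came from a call outside the Hoxa cluster, and the leading call of that cluster, of 11.2, lay outside the tile. Of the others, 117 (15.1%) were no higher than the highest Hox tile, and 250 had no optimal peak. Among the lowest of those were tiles of Rhox homeobox, olfactory receptor, keratin-associated and defensin genes. Of the other tiles, 13 held no pooled call of any strength, among them tiles of Rhox, keratin-associated and defensin genes. The Hox tiles, in contrast, held 5 to 9 pooled calls. Why some tiles had no call was not tested.

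**Figure D4:**
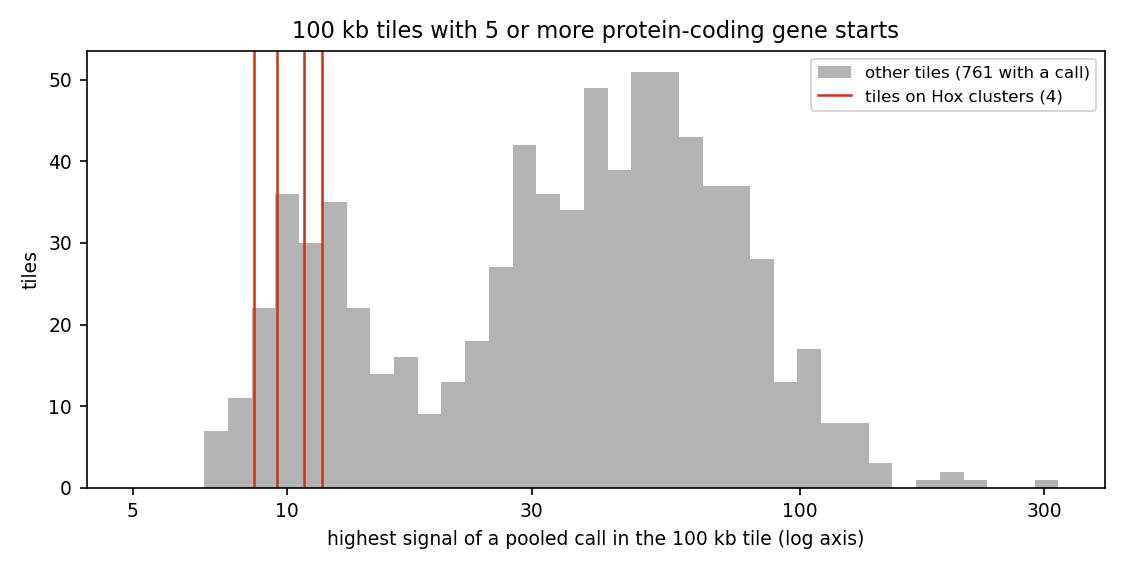
Number of 100 kb tiles with 5 or more protein-coding gene starts against the highest signal of a pooled call in the tile (log axis); 13 tiles without any call are not drawn. The 4 tiles on Hox clusters (red lines, 8.61 to 11.7) lie toward the lower end of the distribution, while the median of the other tiles is 37.99.

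The partners and regulators of the Hox genes were counted in the same way, with no test of the lists. Of the 9 genes for TALE cofactors that bind DNA together with Hox proteins, 8 (88.9%) had an assigned optimal peak, 14 peaks in all, beside the background of 31.9%. Meis1 led with 6 peaks, the best of 42.8, and its promoter peak of 33.8 stood beside 21.0 in replicate 1 and 14.7 in replicate 2. Pbx4 had 2, the best of 16.0, the other members but Pbx3 had 1 each, and Pbx3 had 0. In contrast 0 of the 13 flanking and ParaHox homeobox genes, relatives such as Evx1, Gbx2 and Cdx2 that also act in body patterning, had an assigned optimal peak. None of these 13 had a promoter call in both replicate lists either, although 8 were CpG-rich. The background was 42.2% of all protein-coding genes and 63.8% of CpG-rich ones, and 4 of the 9 TALE genes had such calls. Calls in a single replicate list stood at En2 (4.65), Gsx1 (4.53) and Pdx1 (9.81) in replicate 1 and at Gsx2 (5.84) in replicate 2.

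Of the 18 retinoic acid genes, 7 (38.9%) had an assigned optimal peak, a share near the 31.9% of all protein-coding genes. Dhrs3, a retinaldehyde reductase, had 12 with a best signal of 87.1, the receptor gene Rara 10 with a best of 69.98, and the receptor gene Rxra 5 with a best of 46.8. Aldh1a2, the main retinoic acid synthase of the embryo, and the degrading enzymes Cyp26a1, Cyp26b1 and Cyp26c1 had 0. Of the 19 Polycomb genes, 11 (57.9%) had an assigned peak, where 15 of the 19 are CpG-rich and the background of CpG-rich genes is 48.3%. Jarid2 had 5 (best 29.0), Eed 4 (best 157) and Ezh1 4 (best 53.2). Of the 8 trithorax and H3K27 demethylase genes, 5 (62.5%) had an assigned peak, and 4 of the 8 are CpG-rich. The list was led by Kdm6b, a demethylase that removes the Polycomb mark, with 10 (best 96.0), followed by Wdr5 with 2 (best 26.3). Ash2l, Kmt2a and Rbbp5 had 1 each. These are counts of nearby peaks and no measure of expression.

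Motifs were searched on both strands in 200 bp windows at the Hoxb1-side optimal site and at calls inside the clusters near Hoxa2, Hoxb6, Hoxc6, Hoxc8, Hoxc12, Hoxd4 and Hoxd10. The patterns were TGATNNAT for PBX-HOX pairs, TGACAG for MEIS factors, AGATAAG for GATA factors, CATTCC for TEAD factors, CAGCTG for the class A E-box and CAGGAAG or CCGGAAG for ETS factors. Those of CTCF, MEF2 and the retinoic acid response elements with spacers of 5 and 2 bases are given by name. The Hoxb1-side site, with 59.5% GC, held 2 ETS matches, a motif present in 21.7% of the 17339 optimal windows. Of the windows just listed, E-box matches stood in that of the 11.2 call near Hoxa2 and that of the 7.65 call before Hoxd10. The motif was present in 17.8% of the optimal windows. The windows of the 9.12 call near Hoxa2 and the 9.57 call before Hoxd10 had none. TEAD matches stood in the windows near Hoxb6 and Hoxd4 (14.9%). No PBX-HOX (4.23%), MEIS (18.1%) or retinoic acid element (0.138% and 0.0865%) was found in any of the listed windows. In the RefSeq promoter windows of mm10, from 250 bp before to 50 bp after the start, 22 of 39 Hox genes had an entry. A PBX-HOX match stood in 3 of the 22 (13.6%), as in 9.04% of all 27025 promoters (1 entry per gene), and a MEIS match in 2 (9.09%, against 19.3%). A match is a description of letters and no evidence of binding.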

How the data were processed

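EP300 ChIP-seq peak lists from 2 newborn mouse heart libraries were used, on mm10. Per the file headers, calls were made on each replicate (replicate 1 with 2 control files, replicate 2 with 1) and on the pooled reads, and the authors deposited optimal and conservative IDR lists. The deposited columns used were the signal value, the −log10 q-value and the score of the IDR lists. Depth is unknown. For the aligner, the caller and the threshold of the IDR step, nothing is given in the sources used here.

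Peaks on the main chromosomes were placed on the GRCm38 sequence, 54361 TSSs of protein-coding transcripts in GENCODE M21 and RefSeq promoter entries (GRCm38.p6), with Python 3.11.15, numpy 2.4.6, pandas 2.3.3, pysam 0.24.0 and matplotlib 3.10.9. The assignment step was tested on simulated peaks. A cluster runs from the first to the last base of its Hox genes. Each peak went to its nearest TSS within 100 kb, and promoter calls had a summit within 1 kb. Replicates were matched by summits within 100 bp, and overlapping calls were joined at 496 bp in an alternative. Named were Hox genes with an assigned peak, those nearest to the 3 leading pooled calls per cluster, flanking genes, miRNA genes and the 3 genes with most peaks per list. Results that need 1 member gene, or certain sequences, are not reported here, although that gene is in all counts. Other named genes, and the tile comparison, were chosen after their values were seen. The Hox genes and the lists were chosen with earlier results of these data known, so counts are descriptions and no test was made.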

Additional observations from a re-analysis of the deposited data

How the results depend on the processing

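The count of 0 optimal peaks inside the clusters was 0 in all 5 alternatives run (the conservative list, the leading peaks of either replicate alone, joined sites and 10 kb added on each side). For joined sites this held by construction, as joining peaks cannot raise a count of 0. The single assigned peak and the single Hox gene with a peak rested on distance: both counts were 0 with a limit of 50 kb and 0 when TSSs of all annotated genes competed. With 1 replicate left out, the assigned peaks ranged from 1 to 3 and the genes from 1 to 2. The highest values came from replicate 2 alone, which added a call of signal 11.4 at 45345 bp from Hoxb1. There replicate 1 had an overlapping call of 4.48. Overlapping calls were not joined in this count, so the 3 peaks do not stand for 3 separate sites. The 36 pooled calls in the clusters fell to 7 among the leading 100000 calls, by construction. The 1 gene with a promoter call in both replicates became 0 at 500 bp, 6 at 2 kb, 0 among the leading 100000 calls and 0 with 1 TSS per gene. The files hold no read counts, so whether deeper libraries would bring Hox promoters into the optimal list was not tested.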
